A study of Mus musculus with 6 samples.

Results

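The S100a, Sprr and Lce genes of the epidermal differentiation complex were examined in PAM212, which the labels give as a mouse keratinocyte line, with and without overexpression of the microRNA miR-28-3p. The members were all genes of the deposited count table named S100a, Sprr or Lce followed by a digit, which gave 51 of 21936 genes. They comprise 15 S100a, 15 Sprr and 21 Lce genes, and all 51 lie on mouse chromosome 3. In 3 overexpression libraries the cells had been infected with a lentivirus that carried the mouse miR-28-3p gene. The 3 control libraries came from PAM212 cells whose treatment label reads as not treated and whose titles carry the letters NC. Nothing in the labels tells if the controls carried a vector, so infection and the microRNA cannot be told apart. Both groups were grown in DMEM with 10% FBS, and nothing tells if the 3 libraries of each group were separate cultures, so the p-values measure only the spread between these libraries, which may be technical. The design line of the series names melanocytes, whereas the title and all sample labels name keratinocytes.

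The epidermal differentiation complex is a dense block of genes that keratinocytes switch on as they leave the basal layer and build the cornified envelope, the cross-linked protein shell of the dead surface cell. Sprr genes encode small proline-rich proteins and Lce genes late cornified envelope proteins, both of which transglutaminases join into that shell. S100a genes, on the flanks of the block, encode small calcium-binding proteins that act mostly as dimers, and many of them are made by epithelia that do not cornify. A microRNA lowers messages mainly through sites in 3' UTRs that pair with its seed, bases 2 to 8 of the mature strand.

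The mature strand that was overexpressed is shown first because its seed, in capitals, defines the site searched for in the members. It is taken from RefSeq (GRCm38.p6, chr16:24827908-24827929, plus strand).
mmu-miR-28a-3p: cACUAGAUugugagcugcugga
The matching site in a 3' UTR reads ATCTAGT.

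Promoter sequence is shown for Lce1g, the tested member with the largest rise, and for its neighbours Lce1h and Lce1i. Among the Lce1 windows compared, which lacked Lce1f, those of Lce1h and Lce1i were nearest to that of Lce1g. Both genes stayed at a few counts. Each window is the 250 bases before the RefSeq start (GRCm38.p6, minus strand), at chr3:92752339-92752588, chr3:92765066-92765315 and chr3:92778900-92779149. Capitals mark the 2 longest stretches identical in all 3, each 15 bases long, which begin at bases -142 and -34 from the start.
Lce1g: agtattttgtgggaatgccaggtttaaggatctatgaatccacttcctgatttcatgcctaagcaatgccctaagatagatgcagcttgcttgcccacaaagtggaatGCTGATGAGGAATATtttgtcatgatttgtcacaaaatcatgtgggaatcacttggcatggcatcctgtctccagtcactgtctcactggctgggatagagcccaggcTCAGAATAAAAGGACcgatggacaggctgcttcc
Lce1h: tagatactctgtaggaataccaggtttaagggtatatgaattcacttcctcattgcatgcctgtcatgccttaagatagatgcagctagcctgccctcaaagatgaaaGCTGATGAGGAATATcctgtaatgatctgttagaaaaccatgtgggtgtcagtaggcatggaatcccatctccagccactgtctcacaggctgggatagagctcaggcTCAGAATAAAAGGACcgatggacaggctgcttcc
Lce1i: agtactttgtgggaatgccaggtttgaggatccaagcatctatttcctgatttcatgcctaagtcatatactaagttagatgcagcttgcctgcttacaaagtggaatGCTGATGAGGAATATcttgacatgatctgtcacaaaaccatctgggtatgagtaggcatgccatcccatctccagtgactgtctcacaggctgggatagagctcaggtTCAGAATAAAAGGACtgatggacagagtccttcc

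For S100a16, the tested member with the largest fall, RefSeq gives 2 starts, with windows at chr3:90537004-90537253 and chr3:90540896-90541145 on the plus strand. S100a11 stands for the S100a genes that rose, because the window of S100a7a runs into annotated exons (plus strand, chr3:93520246-93520487). Sprr1a was the Sprr gene with the most counts (minus strand, chr3:92485896-92486131). Capitals mark matches to TGANTCA, the AP-1 motif, and to the TATA box motif, which was searched as TATAAA. The last bases before the start of S100a11 and Sprr1a are left out because the annotation places exons there.
S100a16 first start: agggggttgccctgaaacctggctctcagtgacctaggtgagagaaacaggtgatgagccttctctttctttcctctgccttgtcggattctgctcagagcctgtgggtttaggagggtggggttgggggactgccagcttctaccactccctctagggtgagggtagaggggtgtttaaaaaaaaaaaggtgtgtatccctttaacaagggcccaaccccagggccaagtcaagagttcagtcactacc
S100a16 second start: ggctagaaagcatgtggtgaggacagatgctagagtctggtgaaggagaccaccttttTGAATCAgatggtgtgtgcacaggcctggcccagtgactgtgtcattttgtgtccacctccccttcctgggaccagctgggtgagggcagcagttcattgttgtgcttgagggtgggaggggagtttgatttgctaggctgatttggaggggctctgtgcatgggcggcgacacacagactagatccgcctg
S100a11: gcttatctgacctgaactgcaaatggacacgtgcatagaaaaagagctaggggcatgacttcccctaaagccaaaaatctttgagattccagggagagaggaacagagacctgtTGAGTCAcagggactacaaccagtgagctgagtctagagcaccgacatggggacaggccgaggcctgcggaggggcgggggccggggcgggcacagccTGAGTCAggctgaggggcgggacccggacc
Sprr1a: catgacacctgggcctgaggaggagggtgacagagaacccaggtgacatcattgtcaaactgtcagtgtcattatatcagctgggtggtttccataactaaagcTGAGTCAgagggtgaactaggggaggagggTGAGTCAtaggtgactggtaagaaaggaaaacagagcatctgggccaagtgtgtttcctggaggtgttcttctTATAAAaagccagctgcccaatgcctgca

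The libraries held between 14309898 and 16383374 counts, and depth overlapped between the groups. Levels are given as read counts or as CPM, the count share of a library scaled with TMM, with SD over n = 3 libraries. Members are ranked against each other only in FPKM, which divides by gene length. Sums and shares over genes, marker levels in CPM and counts printed side by side are not corrected for length. Of 10 keratinocyte markers examined, 9 were tested. With overexpression 4 were called higher and 5 lower, beside 42.1% and 43.9% of all tested genes. The summed level of the 10 markers was 4665 to 4686 CPM in the controls and 3485 to 3500 CPM with overexpression. Krt5, a defining keratin of basal keratinocytes, was at 0 in all 6 libraries. Krt14, its partner keratin, was at 30.5 CPM in the controls and 39.1 CPM with overexpression (edgeR adjusted p = 8.25e-06). Krt8 and Krt18, keratins of simple epithelia, went from 1238 to 1088 CPM and from 1798 to 1070 CPM, and Epcam from 831 to 315 CPM. These 3 genes made up most of the sum. Perp and Trp63 were lower as well, and Krt14, Cdh1, Sfn and Dsp were higher. Krt8 turned into a rise of 0.34 on the log2 scale once a trend with gene length was removed. Perp lost its call in that setting (log2 -0.01, edgeR adjusted p = 0.750). Krt14 lost its call with upper quartile scaling (edgeR adjusted p = 0.0933). Against a 1.5-fold minimum Krt14, Krt8, Cdh1, Perp and Dsp were no longer called. Trp63, the transcription factor of the basal layer, had 53 control counts and 5 with overexpression. Among 7 melanocyte markers Tyr was at 0 and the sum was 8.04 to 9.78 CPM against 7.32 to 8.22 CPM. Among 8 myeloid markers Mpo was at 0, and the sum was 39.8 to 40.2 CPM in the controls and 16.7 to 21 CPM with overexpression. Among 7 fibroblast markers Lum was at 0, and the sum was 43.3 to 52.0 CPM against 16.2 to 17.1 CPM, nearly all of it Pdgfra (44.9 and 16.4 CPM). The part of these shifts in the results for the members was not tested. In bulk RNA, fewer cells that make a message and less of it per cell cannot be told apart.

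Detection came first, since a gene without counts has no measurable change. Any count in any library was found for 22 of 51 members (43.1%), and 29 members (56.9%) were at 0 throughout, against 28.4% of all genes in the table. The split followed the families. Of the S100a genes 13 of 15 had counts, of the Sprr genes 5 of 15, and of the Lce genes 4 of 21. All 6 Lce3 genes and Lce6a were at 0, as were Sprr3, Sprr4 and 8 of 11 Sprr2 genes. Detection here means at least 1 count. A floor of 3 counts in 1 library, which was chosen and not measured, equals 0.188 to 0.216 CPM, and lower levels are uncertain at this depth. Summed over a group, the S100a genes took 96838 counts in the controls and 100821 with overexpression, the Sprr genes 9 and 9, and the Lce genes 32 and 554.

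**Figure D1:**
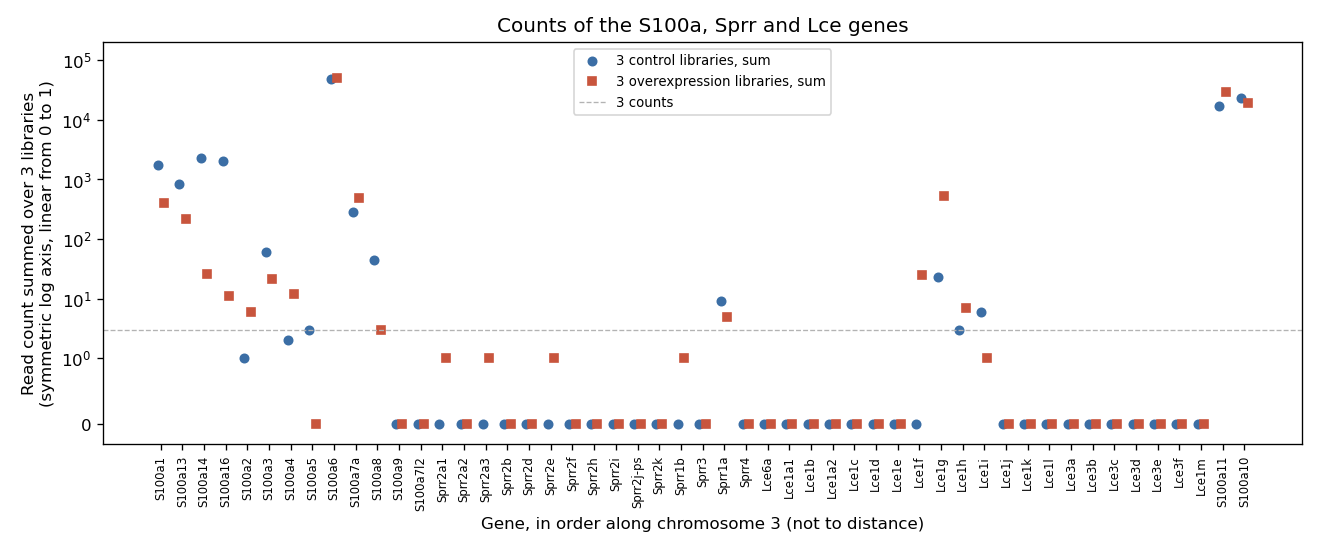
Read counts of all 51 S100a, Sprr and Lce genes, in their order along chromosome 3, summed over the 3 control libraries (circles) and the 3 overexpression libraries (squares) on a symmetric log axis. The S100a genes at both ends carry nearly all counts, and of the 36 genes of the middle block only Lce1g passes 100 counts in a group.

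The sum hid movement between members. Together the 51 genes took 0.208% to 0.217% of all counts in the controls and 0.215% to 0.222% with overexpression. Within that sum S100a6, S100a10 and S100a11 made up 92.3% to 92.6% of the counts in the controls and 98.2% to 98.3% with overexpression, without overlap. This share was formed after the counts had been seen and was not tested.

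The main comparison asked which members differed between overexpression and control cells. In these data 4 members rose and 7 fell: the envelope gene Lce1g and the S100 genes S100a7a, S100a11 and, slightly, S100a6 rose, and S100a1, S100a3, S100a8, S100a10, S100a13, S100a14 and S100a16 fell. The calls rest on the quasi-likelihood F test of edgeR over all 11809 genes with enough counts, and a gene was called where its Benjamini-Hochberg adjusted p was under 0.05. Of the 51 members 11 (21.6%) had enough counts to be tested, against 53.8% of all genes, and all 11 were called. Among all tested genes 42.1% were called higher and 43.9% lower, so most genes of these cells were called and 4 and 7 of 11 is close to that background. The groups did not overlap in any of the 11 genes, which held for 42.2% of all tested genes in the upward and 43.8% in the downward direction. Large changes were counted beside the same background. Changes of at least 8-fold were called for 3 members downward (S100a8, S100a14 and S100a16) and 1 upward (Lce1g), where 4.02% of all tested genes fell and 0.686% rose that far. The median log2 fold change of the 11 was -1.44 and that of all tested genes -0.03. These 11 passed a filter on counts, so their number and median describe the expressed members and not all 51. The 4 genes with large changes passed it through the group where each was high, with means of 0.069 to 0.593 CPM in the other group. Their number is thus a description and was not tested. S100a8 fell by less than 8-fold with a trend on gene length removed.

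**Figure D2:**
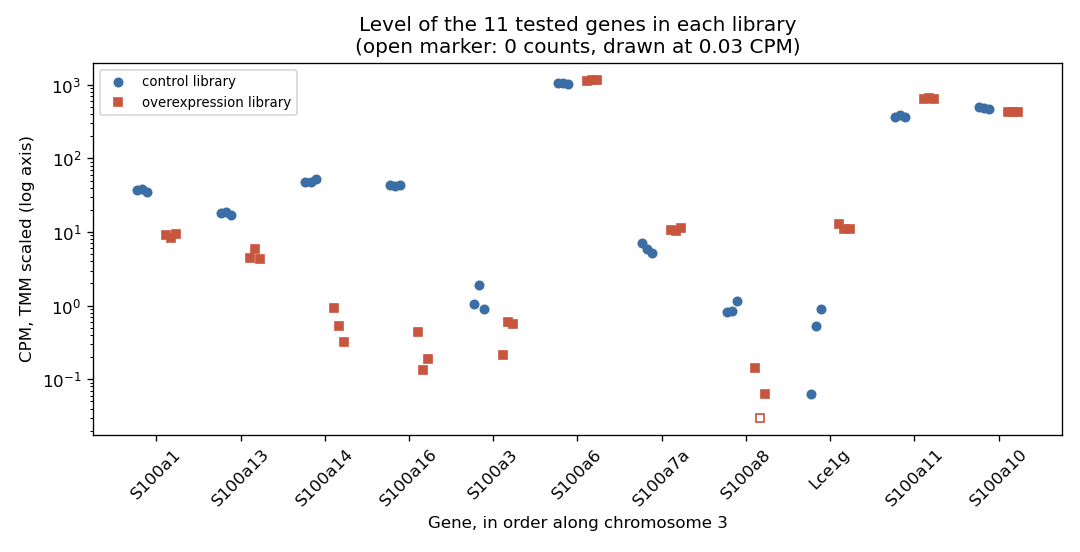
Level of the 11 tested members in each of the 3 control libraries (circles) and 3 overexpression libraries (squares), in CPM scaled with TMM on a log axis. The groups are apart for every gene, by least for S100a6 and S100a10 and by most for S100a14 and S100a16, and an open marker stands for a library at 0 counts.

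The largest falls were in S100a14 and S100a16, neighbouring genes for calcium-binding proteins made by many epithelia. S100a16 (ENSMUSG00000074457, GRCm38 chromosome 3, 90537254 to 90543151, plus strand) had 688, 642 and 684 counts in the controls and 6, 2 and 3 counts with overexpression. The control libraries lay close together, and all 3 overexpression libraries were near 0. In level this was 43.0 ± 0.581 CPM against 0.251 ± 0.159 CPM, or -7.41 ± 0.18 on the log2 scale (the error is an SE obtained from the F statistic; edgeR adjusted p = 2.65e-43), or 170-fold. S100a14 (ENSMUSG00000042306, 90526856 to 90528837, plus strand) had 751, 715 and 818 counts against 13, 8 and 5. Its level went from 48.7 ± 2.76 to 0.593 ± 0.316 CPM, a log2 fold change of -6.37 ± 0.15 (edgeR adjusted p = 1.92e-43), or 82.9-fold. Both folds rest on few counts in the overexpression libraries, and leaving out 1 library at a time gave -7.98 to -7.10 for S100a16 and -6.83 to -6.05 for S100a14.

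S100a1 and S100a13, which come just before them on the chromosome, fell less steeply. S100a1 (90511034 to 90514392, minus strand) is best known as a calcium sensor of heart and skeletal muscle. It had 586, 582 and 551 counts in the controls and 128, 126 and 151 with overexpression, from 36.7 ± 1.70 to 9.02 ± 0.635 CPM. The fall was 4.06-fold (log2 -2.02 ± 0.09, edgeR adjusted p = 4.54e-29). S100a13 (90514435 to 90524581, plus strand) takes part in the release of FGF1 and interleukin 1 alpha from cells without a signal peptide. Its counts were 287, 281 and 271 in the controls and 62, 89 and 69 with overexpression, or 17.9 ± 0.666 against 4.90 ± 0.844 CPM, a 3.65-fold fall (log2 -1.87 ± 0.13, edgeR adjusted p = 1.62e-20). All control libraries of both genes lay above all overexpression libraries.

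The 3 most abundant members changed little by comparison. In FPKM the order in the controls was S100a6 at 796 ± 21.2, S100a11 at 749 ± 23.3 and S100a10 at 416 ± 11.9 (SD, n = 3). The libraries of S100a6 (772 to 812 FPKM) and S100a11 (731 to 775 FPKM) overlapped, although S100a6 was higher within each library. Far under them came S100a1 at 54.6, S100a14 at 29.1, S100a16 at 27.5, S100a13 at 25.9, S100a7a at 4.54 and S100a8 at 1.40 FPKM. With overexpression S100a11 stood first at 1230 ± 33.0 FPKM, above S100a6 at 808 ± 16.2 and S100a10 at 343 ± 1.81, and no libraries of the 3 genes overlapped. S100a11 (ENSMUSG00000027907, chromosome 3, 93520488 to 93526287, plus strand), a partner of annexin A1 that takes part in keratinocyte growth control, had 5818, 5823 and 5702 counts in the controls and 8770, 10115 and 10253 with overexpression. Each overexpression library was above each control, at 649 ± 17.7 against 370 ± 11.8 CPM, a rise of 1.75-fold (log2 0.81 ± 0.02, edgeR adjusted p = 1.08e-37). Of its 50-base stretches 41.1% also occur in the transcripts of Gm12854, Gm7665 or Gm29240, and the assignment of such reads was not given in the sources used here.

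S100a10, known as p11, binds annexin A2 at membranes. Its counts were 7993, 7409 and 7495 in the controls and 5928, 6549 and 6803 with overexpression. The level was 489 ± 13.0 against 430 ± 2.42 CPM, a fall of 1.14-fold (log2 -0.19 ± 0.02, edgeR adjusted p = 3.83e-10) that turned into a rise of 0.49 (adjusted p = 3.36e-28) once a trend with gene length was removed. S100a6, or calcyclin, binds the ubiquitin ligase partner encoded by Cacybp. It had 17079, 16155 and 16114 counts in the controls and 15434, 17465 and 18316 with overexpression. In CPM the groups did not overlap, at 1053 ± 26.7 and 1140 ± 24.3, a rise of 1.08-fold (log2 0.11 ± 0.02, edgeR adjusted p = 2.31e-06) that turned into -0.12 (adjusted p = 4.72e-06) with upper quartile scaling. Neither gene passed a minimum of 1.5-fold (edgeR adjusted p = 1.0 for each).

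The S100 genes tied to skin inflammation went in opposite directions. S100a7a, the mouse relative of the antimicrobial protein psoriasin, had 112, 90 and 82 counts in the controls and 148, 158 and 178 with overexpression. All 3 overexpression libraries were above the controls, at 10.8 ± 0.418 against 6.06 ± 0.920 CPM, a rise of 1.78-fold (log2 0.83 ± 0.14, edgeR adjusted p = 2.09e-07). S100a8, which pairs with S100a9 as calprotectin in neutrophils and stressed keratinocytes, had 13, 13 and 18 counts in the controls and 2, 0 and 1 with overexpression. The group ratio was 14-fold lower (exact 95% interval 4.50 to 70.7), which covers counting error only (log2 -3.66 ± 0.73, edgeR adjusted p = 8.30e-06). Its fitted value ran from -4.55 without overexpression replicate 1 to -3.11 over the libraries left out. S100a9 had 0 counts in all 6 libraries. Of the 8 myeloid markers 3 were tested and 2 called lower, beside 43.9% of all tested genes. These were Cd68 (19.1 to 4.54 CPM) and Cd14 (19.8 to 13.4 CPM), which make up most of the summed level. Cd14 was no longer called with the length trend removed (log2 1.29e-05) or against a 1.5-fold minimum (edgeR adjusted p = 0.506). Csf1r was at 0.817 and 0.811 CPM and not called (edgeR adjusted p = 0.975), Lyz2 had 10 and 8 counts, Ptprc 0 and 5, Elane 0 and 2, Itgam 1 and 0, and Mpo 0 in both.

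S100a3, a protein of the hair cuticle, had 17, 29 and 14 counts in the controls and 3, 9 and 9 with overexpression. The highest overexpression value lay below the lowest control, at 0.459 ± 0.211 against 1.29 ± 0.546 CPM (log2 -1.44 ± 0.45, edgeR adjusted p = 0.00290). Without control replicate 2 it was no longer called (log2 -1.05, edgeR adjusted p = 0.0619). Its span overlaps S100a2 and Gm42674 on the same strand, so its reads are uncertain. The other S100a genes were too low for the test. S100a4, a protein linked to cell motility, had 1, 1 and 0 counts in the controls and 6, 4 and 2 with overexpression (ratio 6.26, exact 95% interval 1.39 to 57.6). It was not called when low genes were kept in the fit (edgeR adjusted p = 0.0594), and 47.4% of its 50-base stretches are shared with Gm42674. S100a2 had 1 count in the controls and 6 with overexpression (ratio 6.26, interval 0.760 to 288), and S100a5 had 3 counts in control replicate 2 and 0 with overexpression.

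Of the Sprr and Lce families Lce1g alone had enough counts for the test. Lce1g (ENSMUSG00000027919, chromosome 3, 92750148 to 92752338, minus strand) had 1, 8 and 14 counts in the controls and 181, 165 and 175 with overexpression. The controls were spread and all far below the overexpression libraries, at 0.493 ± 0.414 against 11.7 ± 1.20 CPM. The log2 fold change was 4.54 ± 0.26 (edgeR adjusted p = 1.58e-23), and 4.02 without control replicate 1 or 5.29 without control replicate 3. In FPKM Lce1g went from 0.550 ± 0.462 to 12.2 ± 1.27. In the overexpression group that was above S100a7a at 7.58 ± 0.285 in every library and overlapped with S100a1 at 12.6 ± 0.879.

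Lce1f (92718685 to 92720350, minus strand) had 0 counts in each control and 6, 7 and 12 with overexpression. Taking 3 counts summed over the controls as the floor, it was at least 8.70-fold higher, and the exact 95% interval of the ratio, for counting error only, begins at 6.57. It did not pass the filter, and with low genes kept in the fit it was called higher (edgeR adjusted p = 3.81e-05). The authors' deposited table calls it higher too (adjusted p = 0.000203), with an infinite log2 fold change. The fitted log2 of Lce1f was 6.12 beside 4.56 for Lce1g. Since Lce1f had 0 control counts, these 2 sizes cannot be ranked. The other Lce1 genes with counts lie next to Lce1g. Lce1h had 3 counts, all in control replicate 3, against 0, 5 and 2 with overexpression (ratio 2.44, interval 0.556 to 14.6). Lce1i had 6 counts, also all in control replicate 3, against 1 with overexpression (ratio 0.174, interval 0.00378 to 1.43). Neither was called with low genes kept in the fit (edgeR adjusted p = 0.408 and 0.231). The other 10 of 14 Lce1 genes were at 0 in every library.

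The paralogs are alike enough for reads to be ambiguous in part. Of the 50-base stretches of Lce1g 17.8% occur in another annotated gene, and for Lce1f, Lce1h and Lce1i the shares were 13.8%, 19.9% and 27.1%. The upstream window of Lce1g printed above was 85.6% identical to that of Lce1i and 84.5% to that of Lce1h. Over the other Lce1 windows the identity ran from 79.5% for Lce1e to 52.7% for Lce1m. Of the windows compared, those most like that of Lce1g belong to Lce1i and Lce1h. These genes had 1 and 7 counts over the overexpression libraries, beside 521 for Lce1g. No window of Lce1f was compared, so its likeness to Lce1g is not known. Whether upstream likeness goes with the change was not tested.

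Sprr genes were barely present. Sprr1a, an envelope precursor induced early in differentiation and in injury, had 3, 5 and 1 counts in the controls and 2, 3 and 0 with overexpression. The groups overlapped, at a ratio of 0.580 (exact 95% interval 0.153 to 1.93). Sprr1b, Sprr2a1, Sprr2a3 and Sprr2e had 1 count each, all with overexpression. For Sprr2a1 and Sprr2a2 96.3% and 96.5% of the 50-base stretches are shared with other genes, mainly each other and Sprr2a3, so a low count there says little about the message. The remaining 10 Sprr genes were at 0.

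Position along the chromosome was then compared with the changes. The first 4 genes of the S100a end, S100a1, S100a13, S100a14 and S100a16 (chromosome 3, 90511034 to 90543151), all fell. S100a3, the next tested gene, fell as well, though its call was lost without control replicate 2. Farther along the same stretch S100a7a and, except with upper quartile scaling, S100a6 rose, and S100a8 beyond them fell. At the opposite flank S100a11 rose and its neighbour S100a10 fell slightly, except with the length trend removed. The order was read after the values had been seen, and no test was made of it. Between the members lie 10 other genes, of which 5 were at 0 and 2 were tested. Ivl, which encodes involucrin, an early scaffold of the envelope, had 56 control counts and 3 with overexpression (log2 -4.00 ± 0.69, edgeR adjusted p = 4.11e-07). Gm9774 was not called (log2 0.35 ± 0.38, edgeR adjusted p = 0.376). Gm38119, which lies between Lce1f and Lce1g, had 0 control counts and 10 with overexpression, and was not tested. Its overexpression libraries stood at 0.216, 0.462 and 0 CPM, so the groups overlapped at 0. It shares 50-base stretches with Lce1l.

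Log2 fold changes followed gene length in these libraries, and the members are short. The tested members had a median deposited length of 1212 bases against 4526 for all tested genes. A smooth trend of log2 fold change on length stood between -0.92 at the length of S100a11 and -0.37 at that of S100a3. With this trend removed 5 members were called higher and 6 lower, since S100a10 turned. The falls then stood at log2 values of -6.83 for S100a16, -5.81 for S100a14, -2.88 for S100a8, -1.19 for S100a1, -1.08 for S100a3 and -1.05 for S100a13. The rises stood at 5.29 for Lce1g, 1.73 for S100a11, 1.47 for S100a7a and 0.76 for S100a6, so falls were smaller and rises larger than with TMM alone. With upper quartile scaling, which moved the median of all tested genes from -0.03 to -0.26 and the share of higher calls from 49.0% to 38.6%, 3 were called higher and 8 lower, since S100a6 turned. The other 9 members kept their direction under both settings.

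**Figure D3:**
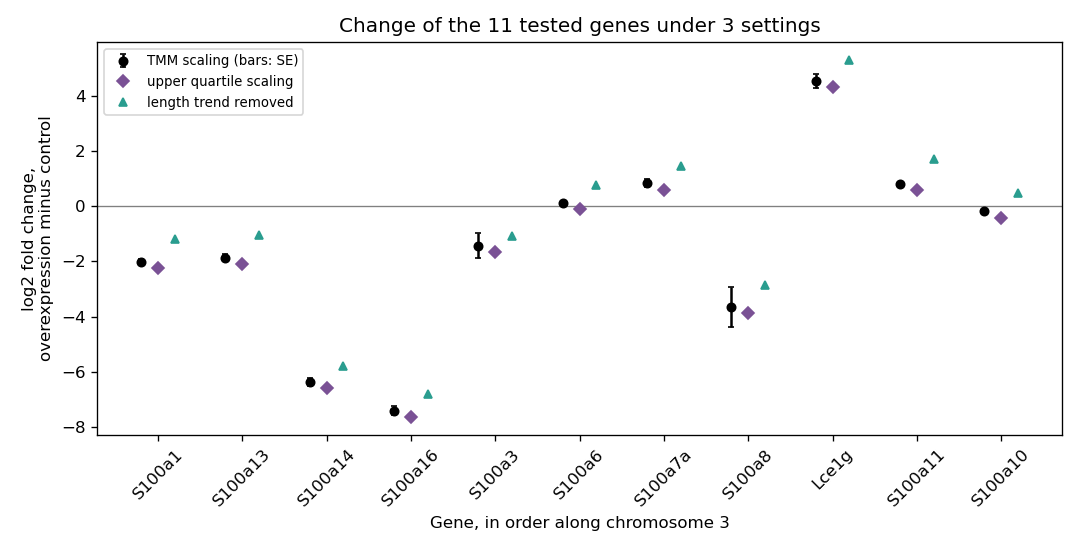
Log2 fold change, overexpression minus control, of the 11 tested members with TMM scaling (circles, bars are SE), upper quartile scaling (diamonds) and the length trend removed (triangles). S100a6 falls to -0.12 with upper quartile scaling and S100a10 rises to 0.49 without the length trend, and the other 9 genes stay on their side of 0.

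The 3' UTRs of the members were searched for the seed site of the overexpressed microRNA. Among 49 members with an annotated 3' UTR of at least 50 bases 0 held it, and 0 of the 11 tested members did. For comparison 785 of 11679 tested genes with such a UTR (6.72%) held the site. The UTRs of the tested members are short, with a median of 347 bases against 1379 for tested genes. The letters of 1 annotated UTR per gene were read, and nothing was measured about binding.

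Upstream windows of 250 bases were searched on both strands for 3 motifs, as a description of letters and not of binding. The AP-1 motif TGANTCA was in the windows of 9 of 14 Sprr genes, 3 of 12 S100a genes and 0 of 20 Lce genes, and in 6.75% of all 32851 windows. TATAAA was in those of 10 of 14 Sprr genes, 4 of 12 S100a genes and 4 of 20 Lce genes, and in 12.4% of all windows. CACCC, a core of KLF sites that can share bases with an AP-1 match, as it does in Sprr1a, was in those of 5 Sprr, 9 S100a and 7 Lce genes, and in 52.0% of all windows. The Sprr genes, which had almost no counts, thus had the AP-1 and TATA letters most often of the 3 families. Most of these are Sprr2 paralogs with AP-1 letters that begin between bases -198 and -193 and TATAAA at -29, so they are not separate cases. Matches far from the start were counted too, as at -218 in Lce6a and -243 in Lce3e, and variants of TATAAA were not searched. Windows of S100a2, S100a10, S100a14, Lce1f and Sprr2j-ps were not analysed here.

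Other genes of the complex and the envelope were read beside the members. Of 15 further genes of the complex 9 were at 0, including Flg, Flg2, Rptn and Hrnr, which encode filaggrin-type proteins of the upper epidermis. Lor, for loricrin, the main protein of the mature envelope, had 0 control counts and 2 with overexpression. Of the 2 tested Ivl fell, and Tchh, for trichohyalin of the hair root sheath, rose from 1.26 ± 0.131 to 3.36 ± 0.687 CPM (log2 1.42 ± 0.28, edgeR adjusted p = 5.07e-06). Of 20 envelope genes outside the complex 5 were at 0 and 9 were tested, with 2 higher, 5 lower and 2 not called, a median log2 of -0.27, beside the same 42.1%, 43.9% and -0.03 over all tested genes. Tgm2, a transglutaminase, fell from 92.2 ± 3.73 to 7.20 ± 0.146 CPM (log2 -3.68 ± 0.07, edgeR adjusted p = 2.74e-47), while Tgm1, the transglutaminase that cross-links the envelope, had 28 and 18 counts. Sbsn, for suprabasin, and Evpl, for envoplakin, fell as well (log2 -2.08 and -1.23). Dsp, for desmoplakin of desmosomes, rose by 0.55. Anxa1 fell by 0.27, which turned into 0.05 with the length trend removed.

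Transcription factors and chromatin proteins known to act on the complex moved both ways. Of 20 genes 17 were tested, 4 higher, 12 lower and 1 not called, with a median log2 of -0.98, where all tested genes had 42.1% higher, 43.9% lower and a median of -0.03. Fosl1, an AP-1 subunit, rose from 4.95 ± 0.522 to 30.5 ± 2.23 CPM (log2 2.62 ± 0.11, edgeR adjusted p = 1.35e-30). Junb, another AP-1 subunit, fell from 586 ± 16.6 to 238 ± 7.42 CPM (log2 -1.30 ± 0.03, edgeR adjusted p = 2.54e-47). Nfe2l2, the oxidative stress factor NRF2, fell (log2 -0.94), as did Ehf, an epithelial ETS factor (log2 -1.41). Smarca4, an ATPase that remodels nucleosomes, rose by 0.73. Each of these 5 kept its direction under all 15 alternatives.

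Of 12 genes for proteins that bind S100 proteins 11 were tested, 7 higher and 4 lower, with a median log2 of 0.23, beside 42.1% higher, 43.9% lower and a median of -0.03 over all tested genes. Ahnak, a scaffold that binds the complex of S100a10 and annexin A2, rose from 815 ± 9.27 CPM by 1.87 on the log2 scale (SE 0.02, edgeR adjusted p = 6.48e-62). Myh9, a non-muscle myosin that S100a4 binds, and Cacybp, the partner of S100a6, rose by 1.03 and 0.91. Anxa6, an annexin that S100a1 and S100a6 bind, fell from 448 ± 4.37 to 102 ± 3.67 CPM (log2 -2.13 ± 0.03, edgeR adjusted p = 8.08e-56). Bsg, a membrane receptor for S100a9, fell by 0.66. A minimum of 1.5-fold left 3 of the 7 higher calls, and Anxa2 and Anxa11 turned lower, uncalled, with upper quartile scaling, as did Iqgap1, called, with the length trend removed.

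**Figure D4:**
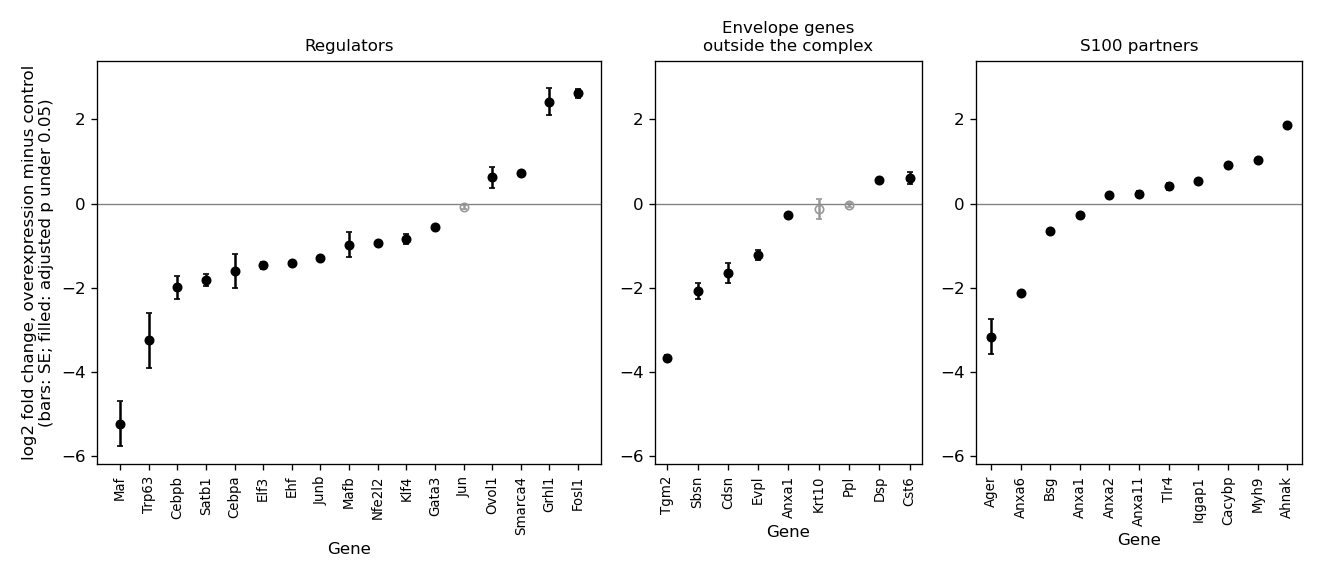
Log2 fold change, overexpression minus control, with SE bars, of the tested genes among regulators of the complex, envelope genes outside it and S100 partners. Filled points are called at an edgeR adjusted p under 0.05, with 4 regulators higher and 12 lower, 2 envelope genes higher and 5 lower, and 7 partners higher and 4 lower.

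S100 genes outside chromosome 3 gave little. S100b had 8 control counts and 7 with overexpression, and S100g and S100z were at 0. S100pbp, which encodes a binding protein of S100P, was called higher at 0.20 ± 0.07 (edgeR adjusted p = 0.00417), a direction that turned with upper quartile scaling (-0.02) and with the length trend removed (-0.19).

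The authors' deposited table lists 22 members, of which 5 are higher and 7 lower at an adjusted p under 0.05. These are the 11 members called here, in the same directions, and Lce1f. Both results rest on the same libraries, so the match is not separate evidence. The share of all genes called in that table was not computed.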

How the data were processed

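The authors deposited raw read counts per gene, which per the file headers are read counts, and FPKM, per the file headers, for 3 control and 3 overexpression libraries. The tools named in the submitters' processing notes are HISAT2, HTSeq and DESeq, with versions, strand setting and handling of shared reads not given in the sources used here. While the notes name mm9, 21604 of 21936 genes, and 49 of 51 members, have the coordinates of GENCODE release 21 for GRCm38, which is used here. The authors' deposited comparison table holds log2 fold changes and adjusted p-values of group B against group A. Group A was taken as the control because its means were nearer to the control counts.

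Counts were tested with edgeR 4.0.16 in R 4.3.3 (filterByExpr with a minimum count of 10, TMM, robust quasi-likelihood F test, Benjamini-Hochberg over 11809 genes, no covariate). The script was tested on simulated data. SE is the log2 fold change divided by the root of F. A group at 0 was set at a floor of 3 counts over the group, and ratios have exact 95% Clopper-Pearson intervals, both covering counting error only. The range of depth over the libraries is given in the report, and the common biological coefficient of variation was 2.93%. Alternatives were RLE and upper quartile scaling, no filter, a 1.5-fold minimum, DESeq2 1.42.0, limma 3.58.1 on log2(FPKM + pseudocount) with 1 and 0.1, a lowess length trend removed, a replicate block and each library left out. Same-numbered libraries were checked for pairing across all tested genes and did not deviate together (r = -0.0048, -0.0031 and -0.031). No shared replicate effect was thus seen, but such values cannot tell if same-numbered libraries were handled as pairs. Sequences are from RefSeq tables of GRCm38.p6.

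Every tested member is given with its library values, members below the filter by their counts, and from each further list up to 5 called genes with the smallest p. Genes named without being members or called with a smallest p (such as Lor, Tgm1, Flg, S100b, Kprp, Anxa2, Iqgap1, Gm38119 and marker genes) were chosen after their values were seen. The members and lists were chosen with earlier results of these data known. Krtap28-13, in the list of further complex genes, lies on another chromosome and was left out. Read statistics of the deposited files were not used.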

Additional observations from a re-analysis of the deposited data

How the results depend on the processing

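Over 15 alternatives the number of members called higher ran from 3 to 5 and the number lower from 6 to 8, and with each library left out in turn from 4 to 4 and from 6 to 7. With the replicate block the counts were 4 and 7, as without it. Of 165 values of single members 158 kept direction and call. Reversed were S100a6 with upper quartile scaling (-0.12) and S100a10 with the length trend removed (0.49), the latter by the construction of that setting. The call was lost for S100a3 without control replicate 2, for S100a6 and S100a10 against a 1.5-fold minimum, and for S100a6 in FPKM with a pseudocount of 1 or 0.1 (log2 0.02, limma adjusted p = 0.431 and 0.434), and the cause was not tested. On the log2(FPKM + 1) scale low members move less, S100a14 and S100a16 by -4.51 and -4.63. Members with any count numbered 22, with each library left out in turn 19 to 22, and 10 with at least 1 count in each library, which is stricter by construction; these detection settings were chosen after seeing the data. Depth limits the members below about 3 counts, where neither absence nor change can be read.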

Other observations

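Pglyrp3, a peptidoglycan recognition protein gene of the same complex, had 0 control counts and 35 with overexpression, and the pigment cell genes Dct and Tyrp1 had 0 in the controls and 31 and 40 with overexpression. These were picked after their values had been seen and were below the filter of the test. The 2 tested of the 7 melanocyte markers, Pmel and Mitf, were called lower (edgeR adjusted p = 0.00285 and 0.00323), as were 43.9% of all tested genes. Pmel lost its call with the length trend removed (edgeR adjusted p = 0.071). Mitf lost its call against a 1.5-fold minimum (edgeR adjusted p = 0.623). Pmel had 87 control counts and 38 with overexpression, and Mitf 329 and 219. Mlana had 3 and 9 counts, Sox10 1 and 6, and Tyr 0 in both groups. Kprp, an envelope-associated gene of the complex, had 3 control counts and 0 with overexpression, and Lelp1 had 0 and 4.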
